A study of Mus musculus with 8 samples.

Results

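The genes described here are 10 named genes of bile acid synthesis and transport, taken by symbol from the 32285 genes in the count tables of a mouse liver study. They are the synthesis genes Cyp7a1, Cyp8b1, Cyp27a1, Cyp7b1 and Baat, the transporter genes Abcb11, Slc10a1 and Slc51b, and the nuclear receptor genes Nr0b2 and Nr1h4. Single-nucleus RNA was sequenced from 8 male DIAMOND mice, 1 library per liver. DIAMOND mice are a cross of 129A1/SvIm and C57BL/6J. On a Western diet (high fat, with sugar water), which all 8 mice received, the strain acquires fatty liver and later tumours of the liver. The 3 groups differ in diet and in hepatocellular carcinoma (HCC, the main cancer of liver cells). The WD tumour mice (n = 3) had 48 weeks of Western diet and carried HCC. The RD tumour mice (n = 2) had 36 weeks of Western diet, were then returned to standard chow, and carried HCC. The RD no tumour mice (n = 3) had the same diet reversal and no detectable HCC. No mouse was kept on chow throughout, so no group shows the level without Western diet. The diets are said to start at 2 months of age and the study to end at 48 weeks of age, which do not add up to 48 weeks of diet, so age is not used. Whether a sampled piece held tumour tissue is not stated.

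Hepatocytes make bile acids from cholesterol. CYP7A1 opens the classical route and sets its rate, CYP8B1 directs the product towards cholic acid, CYP27A1 and CYP7B1 serve the alternative route that starts with oxysterols, and BAAT joins bile acids to taurine or glycine. ABCB11, the bile salt export pump, secretes bile salts into bile, SLC10A1 (NTCP) takes them up from blood, and SLC51B is 1 chain of the exporter OSTα-OSTβ on the blood side. Bile acids activate FXR, the product of Nr1h4, which in liver induces Nr0b2 (SHP) and Abcb11 and holds Cyp7a1 and Cyp8b1 down. Bile acid synthesis is strongest around the central vein.

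Promoter sequence is shown for 3 genes, which are those of the genes searched that held a match to a motif. They are also textbook targets of the receptors named beside them, and their levels varied between mice. RefSeq windows of 250 bases before the gene start (GRCm38.p6) were found for 7 of the 10 genes and searched on both strands with 3 motifs. The inverted repeat bound by FXR was written as GGNCA followed, 1 base on, by its inverted copy TGNCC. The others were an LRH-1 site TCAAGG and an HNF4A site CAAAGTCCA. The FXR motif was in 0.575% of 32851 windows, the HNF4A motif in 0.384% and the short LRH-1 motif in 12.5%. Abcb11 held 1 FXR match, Cyp8b1 1 HNF4A match and Nr0b2 a pair of LRH-1 matches, with no overlap among them. A match says only that these letters are present. The stretches, 5′ to 3′ on the strand of the gene and upstream of its start, have the matches in capitals. They are chr2:69342638-69342708 (minus strand) for Abcb11, chr9:121916334-121916402 (minus strand) for Cyp8b1 and chr4:133553278-133553375 (plus strand) for Nr0b2.
Abcb11: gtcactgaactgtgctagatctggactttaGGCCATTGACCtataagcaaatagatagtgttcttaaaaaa
Cyp8b1: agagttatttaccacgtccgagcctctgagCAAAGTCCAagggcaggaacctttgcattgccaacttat
Nr0b2: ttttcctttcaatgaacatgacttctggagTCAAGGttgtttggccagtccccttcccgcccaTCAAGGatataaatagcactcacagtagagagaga

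Values are unique molecular identifiers (UMIs, each a tagged RNA molecule) per 1000000 UMIs of the library, written CPM. Libraries held 17948627 to 34363108 UMIs in barcodes with at least 300 detected genes, at a median of 1120 to 2656 UMIs per barcode. Any pair of libraries shared 8 to 62 barcode sequences, at most 0.676% of the smaller library. The library of RD tumour 1 stood apart: it held 20000 barcodes, of which 14632 passed none of the marker gates described below. The summed CPM of 14 hepatocyte markers, all of them detected in every library, was 27039.9 in RD tumour 1 and 31809 in RD tumour 2, below all of the other 6 mice (34247 to 44249). The list was thus lower in both RD tumour mice. Of the genes described below, 8 were lowest in RD tumour 1, but none had RD tumour 2 below all of the other 6 mice. The part of the list in the levels of these genes was not tested beyond the scaling by these markers given with the group tests. Fewer cells of a type and less RNA per cell cannot be told apart in sums over a library.

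**Figure D1:**
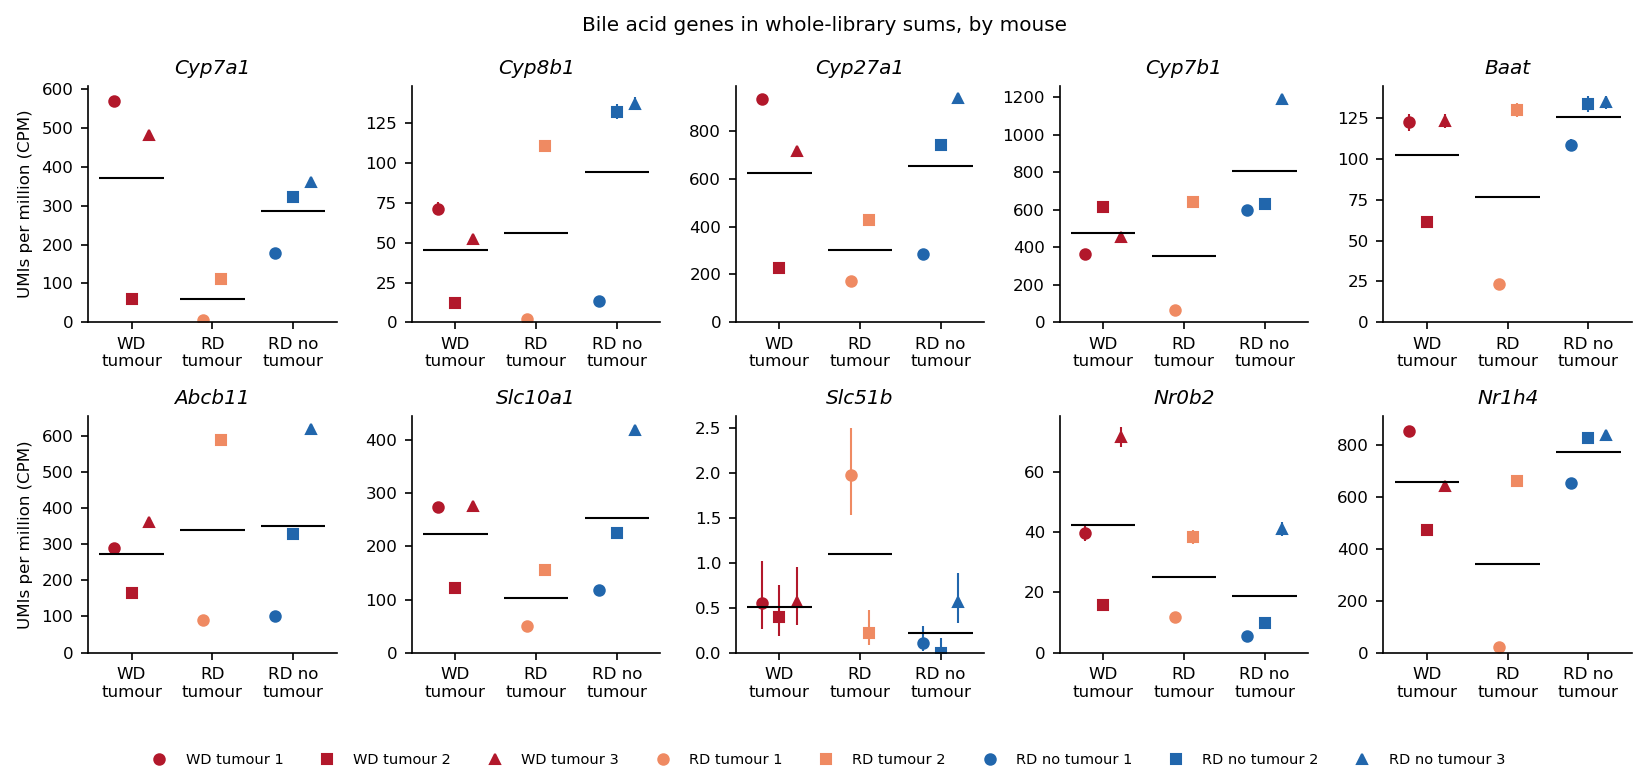
Level of each of the 10 genes in each mouse (CPM of the library sum, axis from 0), with the group mean as a black line and counting intervals of 95% on the points. RD tumour 1 is the lowest mouse in 8 of the panels. The spread is wide within each group for Cyp8b1, and within the tumour groups for Cyp7a1.

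Among the synthesis genes, Cyp7a1 (ENSMUSG00000028240, chromosome 4, 6265612 to 6275633, minus strand, GRCm38) varied most between mice. It had 568, 60.4 and 482 CPM in the WD tumour mice, 6.58 and 112 CPM in the RD tumour mice, and 178, 323 and 362 CPM in the RD no tumour mice. Both RD tumour mice lay below all RD no tumour mice, whereas WD tumour 2 lay between the RD tumour mice. The mean was 370.0 ± 272 CPM (SD, n = 3) for WD tumour. It was 59.3 ± 74.6 CPM (SD, n = 2) for RD tumour and 288 ± 97.2 CPM (SD, n = 3) for RD no tumour. The log2 fold change of RD tumour versus RD no tumour was -2.41 ± 1.27 (SE, edgeR quasi-likelihood, adjusted p = 0.612), and that of WD tumour versus RD tumour 2.74 ± 1.29 (adjusted p = 0.590). Neither passed the threshold of 0.05 on the Benjamini-Hochberg adjusted p.

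Cyp8b1 (ENSMUSG00000050445, chromosome 9, 121914356 to 121916305, minus strand) is a gene of 1 exon, whose upstream stretch with the HNF4A motif is given above. It had 71.4, 12.2 and 52.2 CPM in WD tumour, 1.78 and 111 CPM in the RD tumour mice, and 13.6, 132 and 137 CPM in RD no tumour. The low mice were thus WD tumour 2, RD tumour 1 and RD no tumour 1, 1 in each group, and all groups overlapped. From the lowest to the highest mouse the ratio was 77.3-fold, and the log2 fold change of WD tumour versus RD no tumour was -1.12 ± 1.33 (SE, edgeR, adjusted p = 1). This difference was not larger than the spread between mice by this test.

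The alternative-route enzymes are encoded by Cyp27a1 (ENSMUSG00000026170, chromosome 1, 74713574 to 74737892, plus strand) and Cyp7b1 (ENSMUSG00000039519, chromosome 3, 18071950 to 18243338, minus strand). Cyp27a1 had 935, 226 and 715 CPM in WD tumour, 175 and 426 CPM in the RD tumour mice, and 284, 739.6 and 937 CPM in RD no tumour. Its 3 lowest mice were those of Cyp8b1. Cyp7b1 had 362, 613 and 453 CPM in WD tumour, 63.9 and 639.7 CPM in the RD tumour mice, and 601, 629 and 1191 CPM in RD no tumour. Only RD tumour 1 was low for this gene, and the other 7 mice lay within 362 to 1191 CPM. For RD tumour versus RD no tumour the log2 fold changes were -1.24 ± 0.78 for Cyp27a1 and -1.33 ± 0.84 for Cyp7b1 (SE, edgeR, adjusted p = 0.613 for both).

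Baat (ENSMUSG00000039653, chromosome 4, 49489422 to 49506557, minus strand), the conjugating enzyme, varied little among most mice. Its values were 123, 61.7 and 123 CPM in WD tumour, 23.4 and 130.2 CPM in the RD tumour mice, and 109, 134 and 135 CPM in RD no tumour. Without RD tumour 1 and WD tumour 2, the remaining 6 mice spanned 109 to 135 CPM. The log2 fold change of RD tumour versus RD no tumour was -0.82 ± 0.65 (SE, edgeR, adjusted p = 0.637).

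Of the transporters, the export pump gene Abcb11 (ENSMUSG00000027048, chromosome 2, 69238282 to 69342616, minus strand) had 289.7, 165 and 362 CPM in WD tumour, 90.1 and 587 CPM in the RD tumour mice, and 102, 327 and 617 CPM in RD no tumour. High and low mice occurred in both RD groups, and group means were close, at 272 ± 99.7 (SD, n = 3), 339 ± 351 (SD, n = 2) and 349 ± 258 CPM (SD, n = 3) in the order above. An antisense gene, Gm13613, overlaps Abcb11 on the other strand and had 14.5 to 121 CPM. Whether counting used strand is not given in the sources used here, so reads of the pair may be mixed. The uptake transporter gene Slc10a1 (ENSMUSG00000021135, chromosome 12, 80953183 to 80968705, minus strand) had 274, 122 and 276 CPM in WD tumour, 50.5 and 155 CPM in the RD tumour mice, and 118, 226 and 419 CPM in RD no tumour. All groups overlapped for it, and its log2 fold change of RD tumour versus RD no tumour was -1.43 ± 0.72 (SE, edgeR, adjusted p = 0.612).

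Slc51b (ENSMUSG00000053862, chromosome 9, 65412714 to 65422955, minus strand), whose locus overlaps Rasl12 on the other strand, was near the limit of detection. It had 10, 9 and 14 UMIs in WD tumour, 68 and 6 UMIs in RD tumour, and 3, 0 and 18 UMIs in RD no tumour. The 68 UMIs of RD tumour 1 are 1.98 CPM (95% exact Poisson interval 1.54 to 2.51), and every other library was at or below 0.569 CPM. The 0 in RD no tumour 2 allows a level of up to 0.163 CPM by the same kind of interval. These intervals cover counting error only. The gene that encodes a low-abundance exporter chain thus had its highest level in the mouse where 8 of the other genes had their lowest. Its log2 fold change of RD tumour versus RD no tumour was 2.18 ± 1.26 (SE, edgeR, adjusted p = 0.612), and it turned to -0.22 ± 1.55 (SE, adjusted p = 1) without RD tumour 1.

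The receptor gene Nr1h4 (FXR; ENSMUSG00000047638, chromosome 10, 89454234 to 89533585, minus strand) had 854, 472 and 643 CPM in WD tumour, 22.7 and 662 CPM in the RD tumour mice, and 652, 827 and 840.1 CPM in RD no tumour. RD tumour 1 was far below the other 7 mice, which lay within a range of 472 to 854 CPM. Nr0b2 (SHP; ENSMUSG00000037583, chromosome 4, 133553376 to 133556536, plus strand), an FXR target that lacks a DNA-binding domain, had 39.7, 15.95 and 71.4 CPM in WD tumour, 11.7 and 38.2 CPM in the RD tumour mice, and 5.66, 9.80 and 40.9 CPM in RD no tumour. RD no tumour 1 was lowest and WD tumour 3 highest, and the groups overlapped. For WD tumour versus RD no tumour the Nr0b2 log2 fold change was 1.08 ± 0.88 (SE, edgeR, adjusted p = 1).

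RD tumour 1 was the lowest of all 8 mice for 8 of the 9 genes that averaged at least 10 CPM, Nr0b2 being the other. This count is read against a background of 36.1% of the 10467 genes at that level for which the same mouse was lowest. The median of the other 7 mice was 49.2-fold above RD tumour 1 for Cyp7a1, 40.2-fold for Cyp8b1 and 29.1-fold for Nr1h4. The ratio was 9.59 for Cyp7b1, 5.27 for Baat, 4.46 for Slc10a1, 4.09 for Cyp27a1 and 3.63 for Abcb11. Over all 10467 genes the median log2 difference of this mouse from the median of the others was 0.02, and over the 9 genes it was -2.35. In the same library the summed CPM of 9 neutrophil markers was 2867, against 32.4 to 816 in the other mice, and that of 8 cell-cycle markers was 339 against 12.7 to 196. All genes of both lists were detected in every library. Their part in the low values was not tested.

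A second pattern joined 3 mice of different groups, picked because they were the lowest for Cyp8b1. WD tumour 2, RD tumour 1 and RD no tumour 1 were the 3 lowest mice for Cyp8b1, Cyp27a1, Baat, Abcb11 and Slc10a1, which is 5 of the 9 genes. For the genes of at least 10 CPM this order held in 10.7%. Cyp8b1 had the order by that choice, so the count describes the genes and is not a test. Cyp7b1 and Nr1h4 did not have it, with RD no tumour 1 near the middle of their range. The neutrophil list was highest in the same mice, at 203, 2867 and 816 CPM in the order given, against 115 CPM or less elsewhere. Their cycling lists summed to 196, 339 and 129 CPM, and those of the others to 31.3 CPM or less. Lcn2, an acute-phase gene looked up after the values were seen, had 819, 2037 and 1759 CPM in them and 296 CPM or less in the rest. Saa1, also looked up then, was highest in RD no tumour 1, at 10965 CPM, against 74.8 to 964 CPM in the other 7. Of the other acute-phase genes looked up, Saa3, Orm1 and Orm2 were highest in these 3 mice, but Saa2 and Hp were not. Erythroid markers were also highest in these 3 mice, at 30336, 6222 and 7640.1 CPM, against 4747 CPM or less in the other 5. Markers of dendritic cells summed to 199, 159.8 and 164 CPM in them and to 157.1 CPM or less in the rest, a narrow gap. The lists of hepatocytes, cholangiocytes, endothelial, stellate/fibroblast, macrophage, T and NK, B, plasma, mesothelial and acinar cells overlapped between these 3 mice and the other 5. Macrophage markers, for example, had 779 to 1183 CPM in the 3 and 545 to 797 CPM in the rest. Pancreatic acinar markers reached 248 CPM in RD tumour 2 and 9.80 CPM or less in the others. The part of these values in the levels of the bile acid genes was not tested.

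The 2 RD groups share the diet reversal and differ in the tumour, the 2 tumour groups differ in diet, and the third pair differs in diet and tumour at once. Each group enters 2 of these comparisons, so they share mice. Of the 10 genes, all tested among 19087, 0 passed an adjusted p of 0.05 in each comparison of library sums, where 0% of all genes passed. With DESeq2, 75 genes passed between the RD groups, 37 between WD tumour and RD no tumour and 123 between the tumour groups, and 0 of them were among the 10. The edgeR test gave an unadjusted p under 0.05 for 1279, 524 and 1443 genes in the same order, and for 0 of the 10. The median log2 fold change of the 10 genes was -1.07, -0.26 and 0.66 in that order, against 0.00, -0.01 and -0.01 for all genes tested. In RD tumour 8 of the 10 lay below RD no tumour, the exceptions being Nr0b2 and, through RD tumour 1 alone, Slc51b. With libraries scaled by their hepatocyte markers, the median of all genes moved to 0.54, 0.15 and -0.39 and that of the 10 to -0.50, -0.04 and 0.32, and Abcb11 between the RD groups turned from -0.19 to 0.40. On simulated counts of the same size the test recovered 7% of 4-fold changes and 78% of 16-fold changes for RD tumour versus RD no tumour (19087 genes). The simulated spread was estimated with RD tumour 1 included, and the changed genes were drawn from all genes tested. At that spread, 4-fold differences were mostly not detected. The simulation does not give the limit for the 10 genes or for a fit without that mouse.

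The groups did not overlap for 1 of the 9 genes of at least 10 CPM in RD tumour versus RD no tumour, Cyp7a1, where 17.4% of all genes of that level did not. No member was separated in WD tumour versus RD no tumour (0 of 9, background 10.2%) or in WD tumour versus RD tumour (0 of 9, background 21.7%). An exact permutation test of 2 against 3 or 3 against 3 mice cannot go below p = 0.1 and was not run.

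**Figure D2:**
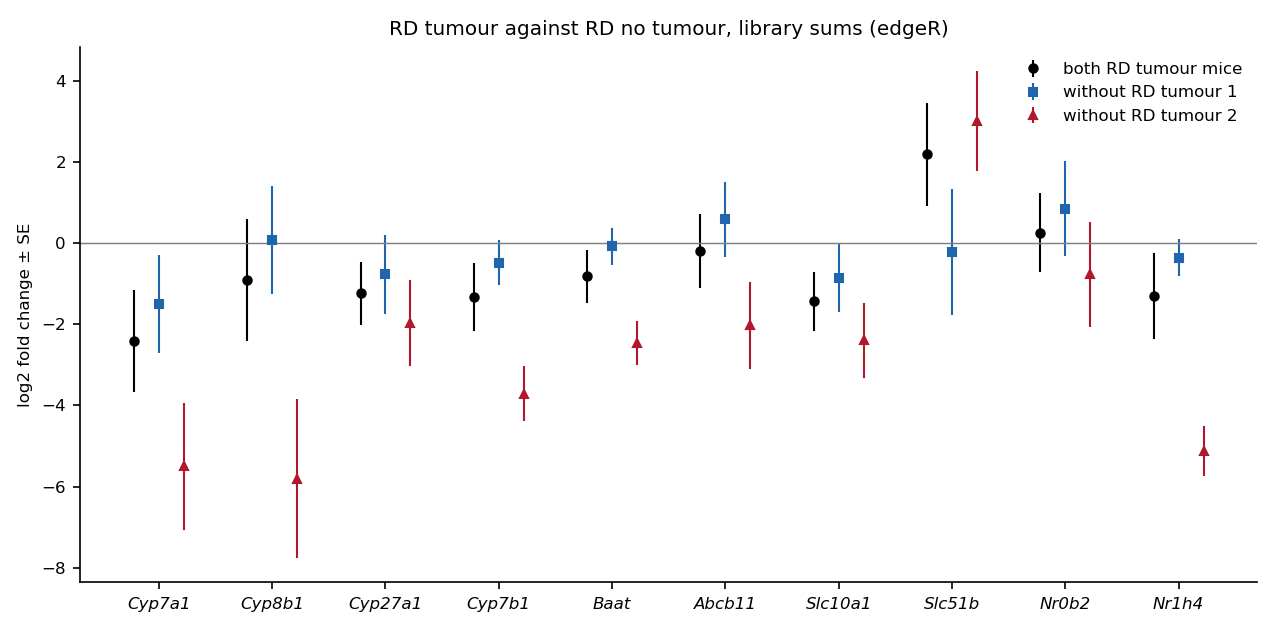
Log2 fold change of RD tumour versus RD no tumour for the 10 genes in library sums (points) with its standard error (bars), fitted with both RD tumour mice, without RD tumour 1 and without RD tumour 2. For Cyp7a1 the values are -2.41, -1.50 and -5.50, and for Nr1h4 they are -1.30, -0.36 and -5.13.

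The RD tumour group rests on 2 mice that lay far apart for most of these genes. Without RD tumour 2, so that RD tumour 1 stood alone and was assumed to vary like the other groups, 4 genes were called lower than in RD no tumour. They were Nr1h4 (log2 fold change -5.13, edgeR adjusted p = 0.0107), Cyp7b1 (-3.71, adjusted p = 0.0173), Baat (-2.47, adjusted p = 0.025) and Cyp7a1 (-5.50, adjusted p = 0.0486), in a fit that called 10.7% of 19873 genes higher and 12.3% lower. With the WD tumour mice set against RD tumour 1, the same 4 were called higher in the former, where 12% of genes were called higher and 10.3% lower. Without RD tumour 1 none of the 10 was called (edgeR; 0 of the 10 at an unadjusted p under 0.05; DESeq2 was not run without that mouse), with Cyp7a1 at -1.50 ± 1.21 and Nr1h4 at -0.36 ± 0.46 (SE). In that fit 11 genes were called for RD tumour versus RD no tumour. The difference between the 2 RD tumour mice has no replicate.

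The levels were then taken from hepatocyte-gated barcodes, which show whether a low library sum is also low per UMI within these barcodes. A barcode was called hepatocyte-gated when it held at least 3 UMIs from at least 2 of 4 hepatocyte marker genes, and at least 2 times as many as markers of other classes. No member served in a gate. Of 79446 kept barcodes 27338 passed, between 1738 and 6223 per mouse. In RD tumour 1, 2862 barcodes passed, and 463 passed a stricter version of the gate. The 4 gating genes summed to 5194 CPM in its gate, against 5948 to 14752 CPM in the other mice. The part of this difference in its low values was not tested. Cyp7a1 had 738, 110 and 626 CPM in WD tumour, 10.8 and 164 CPM in the RD tumour mice, and 288, 431 and 418 CPM in RD no tumour. The order of mice was nearly that of the library sums, and RD tumour 1 was again lowest. The mix of liver zones in the gate differed between mice (zone gates are described below). RD tumour 1 had 96 pericentral-gated and 1445 periportal-gated barcodes, and WD tumour 2 had 642 and 323. In the other mice the periportal-gated ones were the more numerous. The part of this mix in the levels was not tested. Nr1h4 had 1064, 802 and 782 CPM in WD tumour, 29.1 and 818 CPM in the RD tumour mice, and 1000.1, 1042 and 953 CPM in RD no tumour. Apart from RD tumour 1, where the value was 32.7-fold below the median of the others, the mice lay within 782 to 1064 CPM. Cyp8b1 kept its spread, with 74.1, 11.8 and 55.3 CPM in WD tumour, 2.70 and 117 CPM in the RD tumour mice, and 16.4, 150.3 and 139 CPM in RD no tumour.

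RD tumour 1 was the lowest mouse for 7 of 9 genes in hepatocyte-gated sums, against a background of 34% of 9758 genes. Abcb11 was lowest in RD no tumour 1 (166 CPM, against 179 in RD tumour 1) and so was Nr0b2. WD tumour 2, RD tumour 1 and RD no tumour 1 were again the 3 lowest for Cyp8b1, Cyp27a1, Abcb11 and Slc10a1, 4 of 9 genes, where 6.16% of genes had this order. These mice were picked from the Cyp8b1 values, so this count is not a test either. Baat left the pattern, with 173 CPM in RD no tumour 1, its highest value. Groups did not overlap for Cyp7a1 and Nr1h4 in RD tumour versus RD no tumour (2 of 9, background 25.1%). Baat was separated in WD tumour versus RD no tumour (1 of 9, background 12.2%), at 104 to 141 CPM against 149.6 to 173 CPM. In WD tumour versus RD tumour, 0 of 9 were separated (background 29.3%).

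In the test on hepatocyte-gated sums, 9 of the 10 genes passed the filter on low counts, Slc51b not, and 0 of the 9 passed the threshold in the 3 comparisons, in which 0% of 16568 genes did. An unadjusted p under 0.05 (edgeR) was reached by 2151, 464 and 2076 genes and by 0 of the 9. DESeq2 called 372, 28 and 278 genes, 0 of them members. The log2 fold changes of RD tumour versus RD no tumour were -2.26 for Cyp7a1, -1.49 for Slc10a1, -1.38 for Nr1h4 and -0.01 for Abcb11 (edgeR adjusted p = 0.429, 0.410, 0.542 and 0.993). With RD tumour 1 as the only RD tumour mouse, 5 genes were called lower than in RD no tumour (Nr1h4, Cyp7b1, Cyp7a1, Baat and Slc10a1; background 17.6%). The same 5 were called higher in WD tumour (background 16.4%).

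The share of barcodes with a UMI showed the same contrast as the CPM for Cyp7a1 and Nr1h4. Each barcode was thinned to 1000 UMIs, and shallower ones were left out. This removed 2572, 1564 and 1709 hepatocyte-gated barcodes in WD tumour, RD tumour and RD no tumour, 199, 530 and 424 endothelial-gated ones and 209, 514 and 177 stellate/fibroblast-gated ones. Cyp7a1 was then seen in 0.953% of hepatocyte-gated barcodes of RD tumour 1 (2.03% without thinning) and in 7.65% to 39.3% in the other 7 mice (23.3% to 51.8%). In endothelial-gated barcodes, which should lack the gene, the share was 0.651% in RD tumour 1 (1.25% without thinning) and 1.41% to 12.9% in the others (4.75% to 25.8%). Nr1h4 was seen in 2.40% of hepatocyte-gated barcodes of RD tumour 1 (5.28% without thinning) and in 47.5% to 57.7% in the others (60.4% to 78.7%). Its endothelial-gated share was 2.28% (4.78%) and 7.22% to 23.6% (14.6% to 31.8%) in the same order, so in RD tumour 1 both gates were near each other. Median depths were 1460 UMIs (hepatocyte-gated) and 1683 UMIs (endothelial-gated) in RD tumour 1, and 2154 to 4861 and 1233 to 2335 UMIs in the others.

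Cell classes were compared within mice, with each mouse as a block. Non-hepatocyte classes were gated by at least 3 of their markers and at least 60% of all class-marker UMIs of the barcode. This gave 7324 endothelial-gated, 5695 stellate/fibroblast-gated, 4887 macrophage-gated and 897 cholangiocyte-gated barcodes, the last with too few in RD tumour 1 (13, where at least 20 were asked). Hepatocyte RNA was present in each of these gates: the 4 hepatocyte gating genes made up 1997 to 8986 CPM of endothelial-gated sums and 5194 to 14752 CPM of hepatocyte-gated sums. The endothelial level is therefore the background against which the others are read.

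All 9 genes that passed the count filter, Slc51b not among them, were higher in hepatocyte-gated than in endothelial-gated sums, in a fit that called 28.2% of 13920 genes higher. The log2 differences were 1.48 ± 0.15 for Abcb11, 1.48 ± 0.13 for Cyp7a1, 1.43 ± 0.17 for Nr1h4, 1.32 ± 0.10 for Cyp27a1, 1.28 ± 0.17 for Nr0b2, 1.22 ± 0.21 for Cyp7b1 and 1.05 ± 0.13 for Baat (SE). Slc10a1 (0.56 ± 0.10) and Cyp8b1 (0.45 ± 0.14, edgeR adjusted p = 0.00512) differed least. Each of the 9 was higher in 8 of 8 mice. The gates were nearly equal for Slc10a1 in RD tumour 1 and Cyp8b1 in RD no tumour 3 (log2 differences of CPM + 1 of 0.02 and 0.04). The Cyp8b1 levels were 2.70 to 150.3 CPM in hepatocyte-gated and 1.35 to 135 CPM in endothelial-gated sums, and without RD tumour 2 its difference was no longer called (0.35, adjusted p = 0.0583). Their median was 1.28, against 0.01 for all genes tested.

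**Figure D3:**
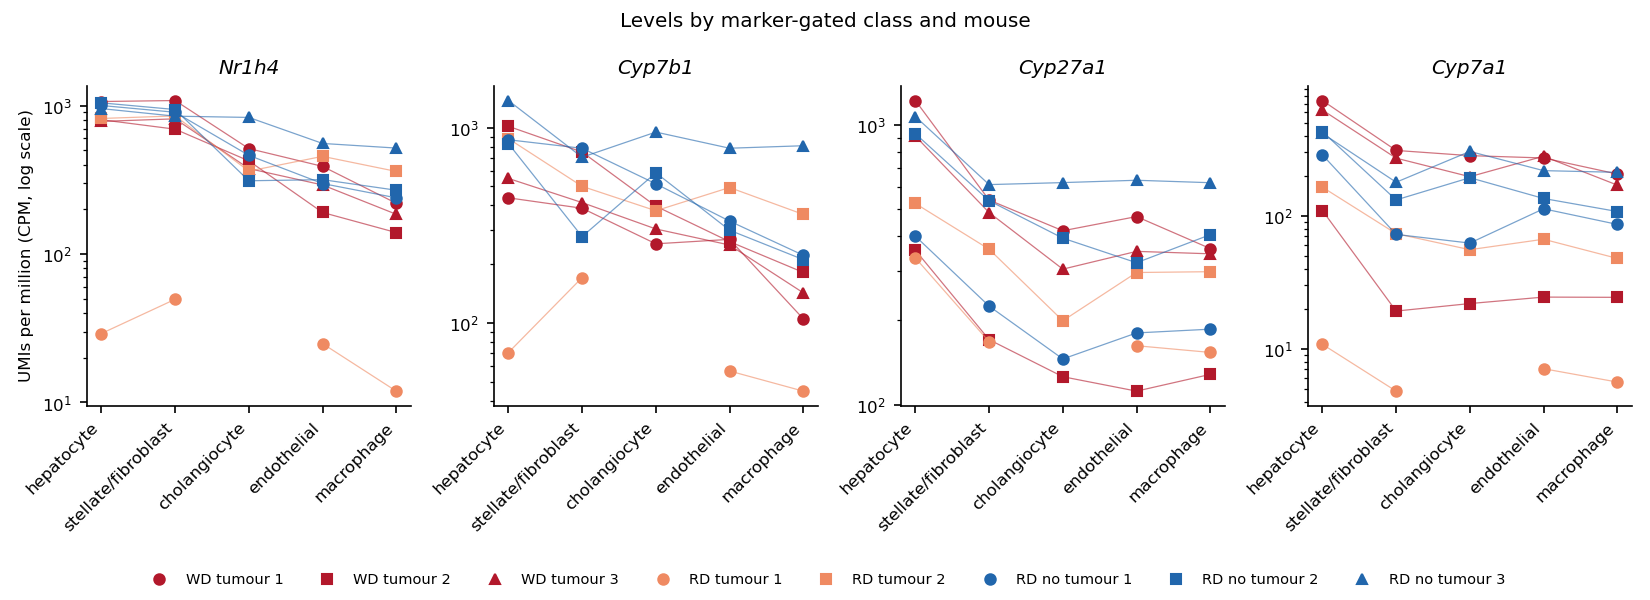
Levels (CPM, log axis) of Nr1h4, Cyp7b1, Cyp27a1 and Cyp7a1 in the sums of 5 marker-gated classes, with 1 line per mouse and no cholangiocyte point for RD tumour 1. The stellate/fibroblast points of Nr1h4 reach the hepatocyte level, whereas those of Cyp7a1 lie with the endothelial points.

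In stellate/fibroblast-gated sums, 3 of the 9 genes were higher than in endothelial-gated sums, where 9.97% of all genes were higher, and 0 were lower. Stellate cells store vitamin A and make scar matrix in a damaged liver. Nr1h4 had 1080.2, 693 and 813 CPM in the WD tumour mice, 49.5 and 851 CPM in the RD tumour mice, and 900.4, 939.6 and 848 CPM in the RD no tumour mice. The endothelial-gated values were 389, 190.4 and 292 CPM, 24.9 and 454 CPM, and 298, 317 and 555 CPM in the same order. The stellate value was the higher in 8 of 8 mice, with a log2 difference of 1.34 ± 0.17 (SE, edgeR adjusted p = 1.09e-08). After thinning, Nr1h4 was seen in 5.50% of stellate/fibroblast-gated barcodes of RD tumour 1 (8.26% without thinning, at a median of 1416 UMIs) and in 47.5% to 58.6% in the others (61.6% to 78.3%, at 1200 to 2704 UMIs). Its low level in RD tumour 1 was thus seen in this gate also. The gate was weak in that mouse, where 221 of 363 barcodes held only the minimum of 3 markers. Stellate/fibroblast markers summed to 3142 CPM in its gate and to 11413 to 14708 CPM in the other mice. The part of this difference in the low Nr1h4 value was not tested.

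Cyp7b1 was higher by 0.75 ± 0.21 on the log2 scale (SE, edgeR adjusted p = 0.00551, higher in 6 of 8 mice) and Cyp27a1 by 0.34 ± 0.10 (adjusted p = 0.00774, higher in 7 of 8 mice). The Cyp27a1 call was lost without RD no tumour 2 (0.29, adjusted p = 0.0584). Cyp7b1 had 171 CPM in stellate/fibroblast-gated and 70.7 CPM in hepatocyte-gated sums of RD tumour 1, and was lower in the stellate gate in the other 7 mice. The remaining 6 genes, Cyp7a1 and Cyp8b1 among them, had log2 differences of -0.21 to -0.01. To lower the part of hepatocyte RNA, the comparison was repeated on barcodes with few hepatocyte-marker UMIs, an alternative chosen after the data were seen. In these, 3132 of the stellate/fibroblast-gated barcodes remained, and the same 3 genes were called, with 13% of 10931 genes higher. The log2 differences were then 3.61 ± 0.24 for Nr1h4, 1.87 ± 0.24 for Cyp7b1 and 1.26 ± 0.17 for Cyp27a1 (SE, edgeR adjusted p = 2.5e-17, 9.0e-09 and 2.0e-08), each in 8 of 8 mice. Per mouse, Nr1h4 had 1083, 728 and 809 CPM in WD tumour, 47.9 and 896 CPM in the RD tumour mice, and 931, 910.2 and 808 CPM in RD no tumour in stellate/fibroblast-gated barcodes. Endothelial-gated barcodes had 104, 22.7 and 81.0 CPM, 14.7 and 149 CPM, and 46.7, 55.8 and 90.3 CPM.

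**Figure D4:**
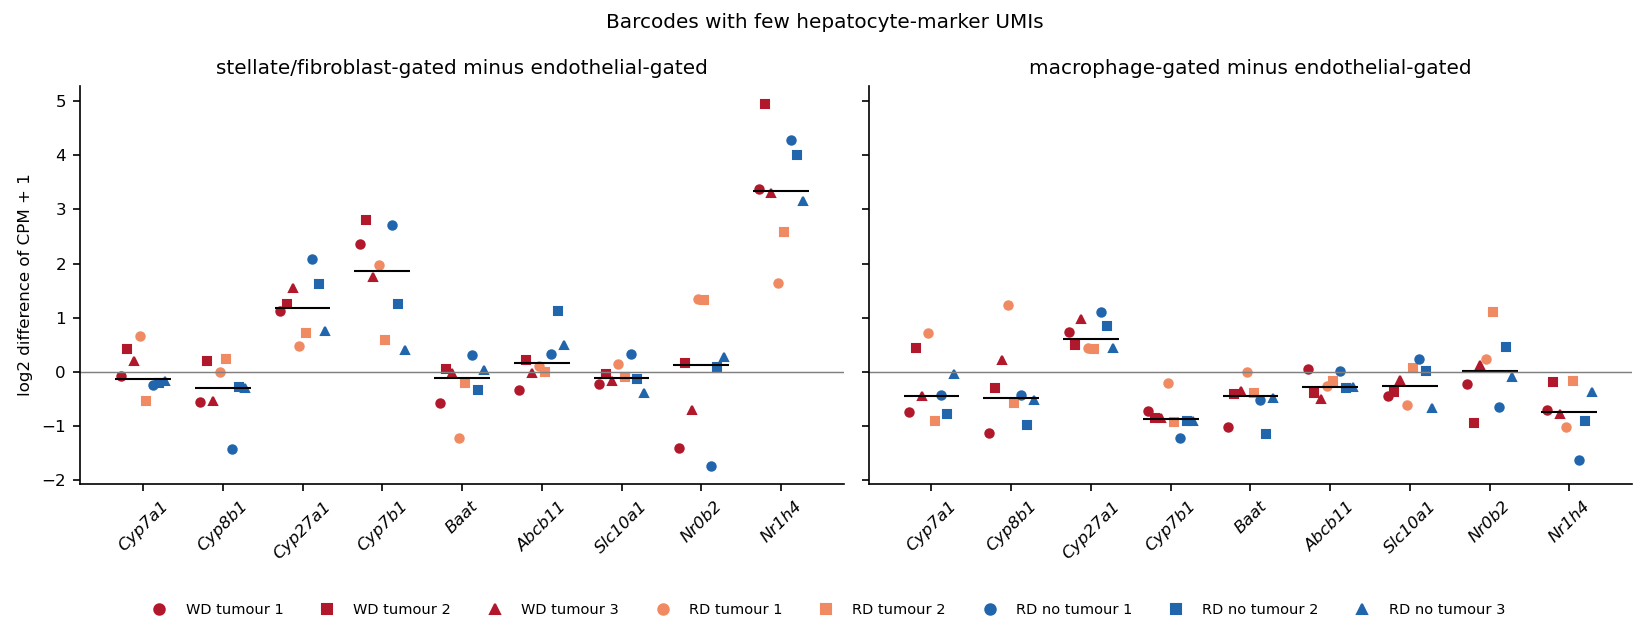
Log2 difference of CPM + 1 between stellate/fibroblast-gated (left) or macrophage-gated (right) and endothelial-gated sums of each mouse, from barcodes with few hepatocyte-marker UMIs, with the median as a black line. In the left panel Nr1h4, Cyp7b1 and Cyp27a1 lie above 0 in 8 of 8 mice, and in the right panel Cyp27a1 does.

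In macrophage-gated sums, 4 of the 9 genes were lower than in endothelial-gated sums, against 16.6% of all genes. These were Cyp7b1 (-0.57), Nr1h4 (-0.49), Cyp7a1 (-0.38) and Baat (-0.36), with edgeR adjusted p of 0.0305, 0.0216, 0.0292 and 0.0451. The hepatocyte gating genes were at 1670 to 8276 CPM there, and the part of hepatocyte RNA in these small differences was not tested in this fit. The calls were also lost with single mice left out, down to 0 of 9 without WD tumour 1 or without WD tumour 3. They numbered 1 without RD no tumour 2 or without RD tumour 2, and 2 without RD no tumour 1. With a stricter gate the differences were larger, at -1.14 for Cyp7a1, -1.13 for Cyp7b1, -0.90 for Nr1h4 and -0.77 for Baat. Cyp8b1 (-0.65) and Abcb11 (-0.65) were then called too, so that 6 of 9 were lower, where 24.3% of genes were (20.4% higher). Cyp27a1, which macrophages are known to express, was not called in these sums (-0.02 ± 0.10, SE, adjusted p = 0.916). In barcodes with few hepatocyte-marker UMIs it was higher, by 0.62 ± 0.17 (SE, adjusted p = 0.00236, 8 of 8 mice). The macrophage-gated values were 195, 82.2 and 208 CPM in WD tumour, 109 and 211 CPM in the RD tumour mice, and 112, 231 and 262 CPM in RD no tumour. The endothelial-gated ones were 117, 58.3 and 105 CPM, 80.3 and 158 CPM, and 51.4, 128 and 194 CPM. In that fit 20% of genes were higher, and Cyp7b1, Nr1h4, Cyp7a1, Baat and Cyp8b1 were lower (19.9% of genes lower).

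In cholangiocyte-gated sums of 7 mice, 0 of the 9 genes passed the threshold against the endothelial level (edgeR; 0 at an unadjusted p under 0.05; DESeq2 was not run for classes), where 11.3% of genes were higher and 14.1% lower. Cholangiocytes line the bile ducts. Nr1h4 had 311 to 831 CPM there and 190.4 to 555 CPM in the endothelial gate, at a log2 difference of 0.27. With few hepatocyte-marker UMIs, in 380 barcodes, Nr1h4 was higher by 0.90 ± 0.29 (SE, adjusted p = 0.0128; background 12.6%) and Slc10a1 lower, at -0.52 ± 0.20 (SE, adjusted p = 0.0440; background 18.4%).

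Hepatocyte-gated barcodes were split into pericentral-gated and periportal-gated ones by 11 markers of each zone. Of the 9 genes tested, 4 were higher in the pericentral gate (7.66% of 12586 genes were) and 1 was lower (9.94% were). Cyp7a1 had 1202, 134 and 976 CPM in the pericentral gate of the WD tumour mice, 20.01 and 356 CPM in the RD tumour mice, and 443, 742 and 796 CPM in RD no tumour. The periportal gate had 527, 85.6 and 532 CPM, 8.65 and 82.2 CPM, and 194, 301 and 257 CPM. The pericentral value was the higher in 8 of 8 mice, at a log2 difference of 1.31 ± 0.12 (SE, edgeR adjusted p = 5.8e-07). In RD tumour 1 it rests on 5 UMIs from 96 pericentral-gated barcodes, against 29 UMIs from 1445 periportal-gated ones.

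Cyp27a1 was higher in the pericentral gate by 0.89 ± 0.08 (8 of 8 mice), Cyp7b1 by 0.76 ± 0.14 (7 of 8) and Cyp8b1 by 0.23 ± 0.07 (7 of 8; adjusted p = 0.0249). Baat was lower, by -0.24 ± 0.07 (lower in 7 of 8; adjusted p = 0.0182). These 2 calls were not stable: Cyp8b1 lost its call without RD tumour 2 (0.22, adjusted p = 0.0692), RD no tumour 1 (0.22, 0.0553), RD no tumour 3 (0.20, 0.114) or WD tumour 1 (0.23, 0.0509). Baat lost its call without RD no tumour 1 (-0.22, adjusted p = 0.0550), RD no tumour 2 (-0.20, 0.0632) or WD tumour 2 (-0.21, 0.0658). RD tumour 1 was the exception among the mice for Cyp7b1, Cyp8b1 and Baat. For Cyp8b1 that mouse had 0 CPM in the pericentral gate, of 96 barcodes, and 2.39 CPM in the periportal gate. So few counts do not show a reversed order of the zones. The transporter genes and the receptor genes were not called. The log2 values were 0.07 ± 0.08 for Abcb11, 0.08 ± 0.07 for Slc10a1 and -0.00 ± 0.06 for Nr1h4, and Nr0b2 had -0.44 ± 0.19 (SE, edgeR adjusted p = 0.135). Nr0b2 was called lower in the pericentral gate without WD tumour 1 (-0.72, adjusted p = 0.00183) and with no filter on low counts (-0.48, adjusted p = 1.3e-05). The 4 genes called higher encode cytochrome P450 enzymes of synthesis. Whether they differ from the transporter genes in this respect was not tested.

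**Figure D5:**
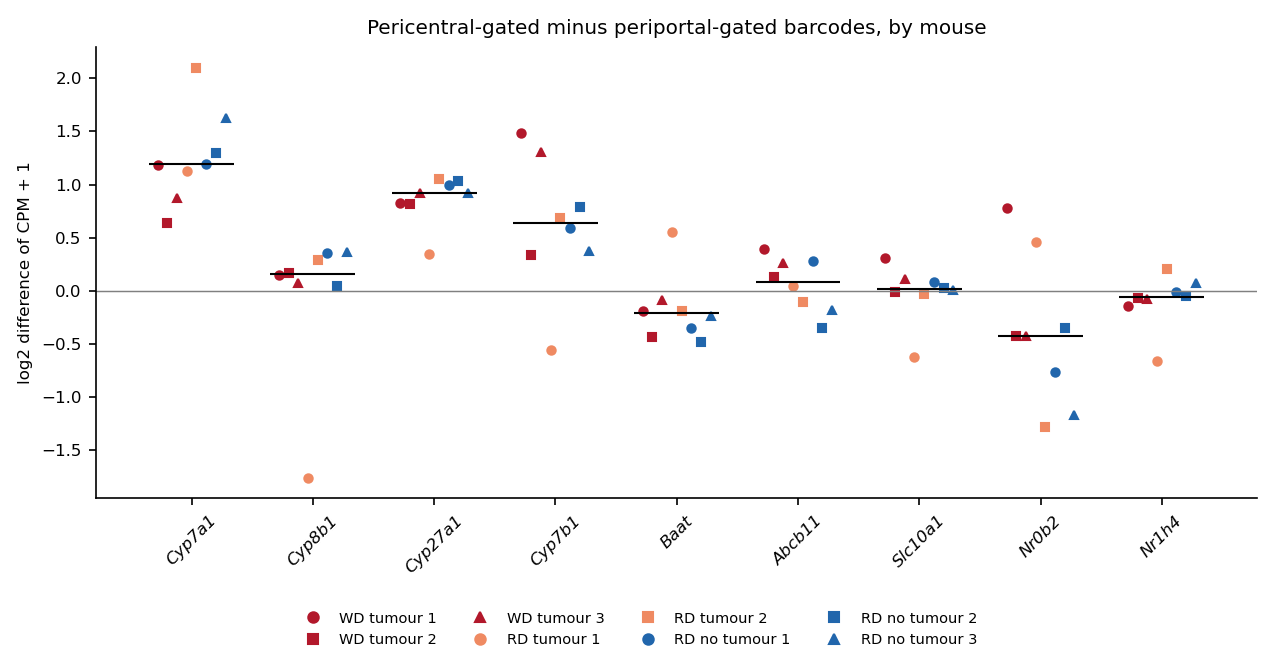
Log2 difference of CPM + 1 between pericentral-gated and periportal-gated sums for each mouse, with the median as a black line. Cyp7a1 and Cyp27a1 lie above 0 in 8 of 8 mice, and RD tumour 1 (96 pericentral-gated barcodes) lies apart for several genes. Its point for Cyp8b1, at -1.76, has 0 CPM in the pericentral gate.

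The wider pathway was read from 54 other genes in 4 lists, of which 52 were tested in library sums. None passed the threshold in the 3 comparisons (edgeR; 4, 2 and 3 genes at an unadjusted p under 0.05 in the order used above). For RD tumour versus RD no tumour, 13 of 15 synthesis genes had a lower level, as did 12 of 16 transport genes, 13 of 14 regulators and 4 of 7 detoxification genes. The median log2 fold change of the 52 was -0.51, against 0.00 for all genes. For the same pair of groups the named genes of the synthesis list were Acox2 (side-chain oxidation), at -1.46 ± 0.71, and Akr1d1 (steroid ring reduction), at -1.35 ± 1.02 (SE). Acox2 had 61.9 CPM in RD tumour 1 and 216 CPM in RD tumour 2, against 199 to 596 CPM in RD no tumour. Akr1d1 had 14.3 and 169 CPM in the same order, against 95.8 to 331 CPM. RD tumour 2 thus lay within the RD no tumour range for both. How far the counts of lower genes rest on RD tumour 1 is not given here. The transporter Slco1b2 had -1.27 ± 1.11, and the regulators Nr1i3 (CAR) and Hnf4a had -1.42 ± 0.95 and -1.004 ± 0.50 (SE).

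Between WD tumour and RD no tumour, directions in the 4 lists were mixed, with 7 of 15, 10 of 16, 6 of 14 and 5 of 7 genes higher in WD tumour in the order above. The named genes were Cyp46a1 (1.36), which makes an oxysterol, Fgfr4 (-0.64), the receptor of the gut hormone FGF15, and Ppara (0.54), besides those described next. For WD tumour versus RD tumour, 13 of 15, 9 of 16, 11 of 14 and 5 of 7 genes were higher. Named there were Cyp46a1 (2.15), Slco1b2 (1.48), the canalicular exporter gene Abcc2 (1.11), Nr1i3 (1.37), Nr5a2 (1.20; LRH-1, whose motif is in the Nr0b2 stretch above) and Sult2a8 (1.31). All of these log2 fold changes had an edgeR adjusted p above the threshold.

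Groups did not overlap for 2, 4 and 5 of the 45 pathway genes of at least 10 CPM, in the order of comparisons used above. These shares, 4.44%, 8.89% and 11.1%, lay below those of all genes of that level (17.4%, 10.2% and 21.7%). All 5 mice with tumours were apart from the 3 without for 2 of the 45, against 2.57% of all genes. One was Slco1a1, an organic anion uptake transporter, with 129, 154 and 98.8 CPM in WD tumour, 116 and 99.1 CPM in the RD tumour mice, and 268, 313 and 407 CPM in RD no tumour. Its log2 fold change was -1.69 ± 0.35 for RD tumour versus RD no tumour (SE, edgeR unadjusted p = 0.00139, adjusted p = 0.612) and -1.43 ± 0.30 for WD tumour versus RD no tumour (unadjusted p = 0.00148, adjusted p = 1). The other was Abcb1a, an efflux pump of broad substrate range, which lay the opposite way. It had 19.6, 13.8 and 18.8 CPM in WD tumour, 24.5 and 11.8 CPM in the RD tumour mice, and 10.3, 8.17 and 9.16 CPM in RD no tumour. Its log2 fold change of WD tumour versus RD no tumour was 0.88 ± 0.35 (SE, edgeR adjusted p = 1).

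Cyp2c70, which makes muricholic acids in mice, had 358, 261 and 407 CPM in WD tumour, 161 and 52.6 CPM in the RD tumour mice, and 188, 49.8 and 154 CPM in RD no tumour. The WD tumour mice were above all others for this gene, 1 of the 45, and 3.21% of all genes had WD tumour apart from all RD mice. Its log2 fold change was 1.36 ± 0.59 over RD no tumour and 1.68 ± 0.68 over RD tumour (SE, edgeR adjusted p = 1 and 0.590). Sult2a1, a bile acid sulfotransferase with close paralogs that may share reads, was at 22.9 CPM in RD tumour 1 and at 2.72 CPM or less in the other 7 mice. Its fitted log2 fold changes (5.80, 2.22 and -3.58 in the order of comparisons) rest on these few values. Its paralog Sult2a2 had 2.80 for RD tumour and 2.15 for WD tumour, each relative to RD no tumour (edgeR adjusted p = 0.612 and 1).

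In the class comparison 41 of 47 tested pathway genes were higher in hepatocyte-gated than in endothelial-gated sums, where 28.2% of all genes were, and 2 were lower (27.6%). By size of the log2 difference these were led by Abcc4 (-2.71), Ppara (1.56), Nr1i2 (1.55), Nr1i3 (1.53), Abcc2 (1.5), Sult2a8 (1.49), Ppargc1a (1.48), Abcg2 (-1.48), Klb (1.44) and Abcg8 (1.42). Stellate/fibroblast-gated sums had 4 higher (9.97% of all genes) and 4 lower (10.5%), which is near the background. They were Papss2 (3.40), Cyp46a1 (1.36), Atp8b1 (1.17) and Ephx1 (0.83), and, lower, Abcc4 (-1.56), Abcg2 (-0.95), Nr5a2 (-0.85) and Foxo1 (-0.69). In macrophage-gated sums Nr1h3 (LXRα, 2.09) and Abcc3 (1.37) were higher, 2 of 47 where 17.9% of all genes were. There 10 genes were lower (16.6%), led by Abcg2 (-1.64), Nr5a2 (-1.08), Foxo1 (-0.96), Atp8b1 (-0.68), Cyp39a1 (-0.54), Akr1d1 (-0.45), Hnf4a (-0.38) and Acox2 (-0.37).

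Cholangiocyte-gated sums had 9 of the 47 higher (11.3%) and 3 lower (14.1%). The largest differences were those of Abcb1a (2.44), Abcg2 (-2.10), Abcc4 (-2.06), Fgfr4 (1.33), Prox1 (1.22), Ppargc1a (1.14), Slc10a2 (0.82), the apical bile acid transporter, Atp8b1 (0.78), Acot8 (-0.69) and Abcc3 (0.68). Between zones, 14 of 46 were higher in the pericentral gate (7.66%) and 3 lower (9.94%). The largest differences were those of Sult2a8 (1.95), Akr1c6 (1.66), Cyp3a11 (1.64), Abcc4 (1.14), Slco1b2 (1.06), Abcb4 (0.70), Ugt1a1 (0.56), Cyp39a1 (-0.55), Hsd3b7 (0.54) and Ppargc1a (-0.45).

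Genes of the most similar pattern over the 8 library sums were listed by the root-mean-square distance of log2(CPM + 1) after centring, among 10458 genes. For Cyp7a1 they were 4930404H11Rik (0.52), Ces3b (0.55) and Gm40438 (0.58), where the median gene was at 1.98. For Cyp8b1 they were 1810044K17Rik (0.45), Gm36264 (0.46) and Ppp1r3c (0.50; median 1.93). For Nr0b2 they were Tcea3 (0.38), Ddah1 (0.49) and Lipc (0.65; median 1.19). Tcea3, for example, had 60.3, 22.2 and 85.1 CPM in WD tumour, 20.4 and 53.2 CPM in the RD tumour mice, and 13.04, 30.01 and 77.0 CPM in RD no tumour.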

How the data were processed

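Counts are the unit of the deposited files: for each mouse the authors deposited 1 sparse matrix of UMI counts, not normalized. Per the submitters' processing notes, Cell Ranger 7.0.0 and build mm10 were used. The use of intronic reads and of strand is not given in the sources used here. Members and gene lists were chosen with earlier results of these data known. Barcodes with at least 300 genes were kept (79446 of 80575) and no doublet caller was run, but barcodes of highest depth were left out in an alternative. UMIs were summed per mouse, gated class or zone and tested with edgeR 4.0.16 (TMM, filterByExpr, quasi-likelihood F test, Benjamini-Hochberg over all genes tested, threshold 0.05) in R 4.3.3. All groups entered 1 model, and classes had the mouse as a block. DESeq2 1.42.0, another normalization, filters, gates and left-out mice were alternatives. The model was tested on simulated data. The mouse is the replicate. All members are named. Of 4 pathway lists, each comparison names the genes past the threshold, up to 10 by size, and otherwise the 2 of largest change per list. Those given by mouse were picked after their values were seen. Positions are from GENCODE M21 (GRCm38).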

Additional observations from a re-analysis of the deposited data

Results flagged for a closer look

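Differences between 2 gates of the same mouse were compared over mice, and 10 of 45 sets had 1 mouse far from the others. Chance alone sets about 1 in 20 apart among independent sets of normally spread values. These 45 sets share mice and gates, so their count is not a test. Values are log2 differences of CPM + 1. RD tumour 1, with 96 pericentral-gated barcodes, stood apart in 5 pericentral against periportal differences: Cyp8b1 (-1.76), Cyp27a1 (0.35), Baat (0.55), Slc10a1 (-0.62) and Nr1h4 (-0.66). It also stood apart for Slc10a1 in stellate/fibroblast-gated against endothelial-gated sums (0.13). RD no tumour 1 stood apart for Abcb11 in the same comparison (-0.65) and for Cyp8b1 in cholangiocyte-gated against endothelial-gated sums (-3.64), where it had 0 UMIs in the cholangiocyte gate. RD tumour 2 stood apart for Baat (-1.17) and Abcb11 (-1.08) in cholangiocyte-gated against endothelial-gated sums. The barcodes or UMIs behind several of these values are few. For example, Cyp8b1 had 0 CPM in the pericentral gate of RD tumour 1. This does not hold for all: the Abcb11 value of RD no tumour 1 compares 1019 stellate/fibroblast-gated with 924 endothelial-gated barcodes. The part of low counts was not tested.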

How the results depend on the processing

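In the comparisons of groups, DESeq2 called 75, 37 and 123 genes in library sums and 372, 28 and 278 in hepatocyte-gated sums (between the RD groups, between WD tumour and RD no tumour, and between the tumour groups), where edgeR called 0, and 0 of the bile acid genes in each. The cause was not tested. Leaving out each mouse in turn, the genes called ranged from 0 to 4569 and 0 to 4438 in library sums and from 0 to 5598 and 0 to 5299 in hepatocyte-gated sums for the comparisons with RD tumour, with 0 to 4 and 0 to 5 of the bile acid genes in each, all at their highest without RD tumour replicate 2. In class comparisons the same range was 8 to 9 of 9 for hepatocyte-gated, 2 to 3 for stellate/fibroblast-gated, 0 to 4 for macrophage-gated and 3 to 5 for pericentral-gated sums. Of the remaining alternatives, cholangiocyte-gated sums gave 1 call with no low-count filter, 1 with a stricter gate and 2 with few hepatocyte-marker UMIs, where 0 were called otherwise. Cyp27a1 in macrophage-gated sums turned from -0.02 to 0.62 with few hepatocyte-marker UMIs. With no replicate block (mouse left out of the model), the calls were 4 of 9 for hepatocyte-gated sums and 0 for macrophage-gated, stellate/fibroblast-gated and pericentral-gated sums. The replicate numbers of the labels were treated as names only. Correlations of same-numbered mice across groups ran from -0.68 to 0.51, and whether the numbers mark pairs was not tested further. With the numbers as a replicate block, 0 genes and 0 bile acid genes were called in each comparison of groups. Values that were not called changed sign 57 times among the group values, up to a size of 4.68 (log2), and 35 times among class and zone values, up to 0.56. With 2 or 3 mice in a group and a spread that included RD tumour 1, simulated 4-fold changes were mostly not recovered.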
